A study of Homo sapiens with 96 samples.

Results

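The comparison described here is whether the effect of GSK591 on exon choice differed between 7 and 4 days of treatment. Poly(A)-RNA seq of A549, a widely used human lung adenocarcinoma cell line, gave the values, and 12 of the 96 samples of the series enter the comparison. These are 3 libraries each of cells given 0.01% DMSO for 4 days, 1 µM GSK591 for 4 days, 0.01% DMSO for 7 days, and 1 µM GSK591 for 7 days. Beside these, 3 libraries each of cells given 1 µM MS023 for 4 days, 1 µM MS023 for 7 days, and 1 µM GSK591 for 2 days are used at the end. The identity of the control group of the 7-day table was inferred from the labels, where DMSO is the one remaining group at that day. Letters a, b, and c stand for the position of a library in the deposited values, which give no replicate number. Nothing in the labels says that replicates were separate cultures, so p-values measure the spread between these libraries. All 4-day libraries were listed in one table and all 7-day libraries in another, so a change with day cannot be told apart from any difference in handling between the days.

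The units compared are exon events, taken where type and coordinates were identical in both tables. Their types are SE (an exon skipped or kept), MXE (1 of 2 exons used), and A3SS and A5SS (a choice of acceptor or of donor site). Of 202280 exon events in the 5 tables used here, 88171 were in both GSK591 tables, and 74514 had at least 10 reads in each of the 12 libraries and were tested (54702 SE, 11058 MXE, 5311 A3SS, and 3443 A5SS). These lie in 10121 genes and hold 60665 distinct exons or site pairs, since 1 exon can be listed with several flanks and then shares reads. The inclusion level Ψ runs from 0 to 1 and is the share of transcripts that carry the exon, or the longer form at an alternative site. For MXE it is the share of the exon that comes first in the transcript. ΔΨ is GSK591 minus DMSO on the same day, and the difference of ΔΨ is ΔΨ at 7 days minus ΔΨ at 4 days. The test was made on the log odds of inclusion, in a quasi-binomial logistic model of the 12 libraries with Benjamini-Hochberg adjustment over all 74514 events, and an event was called at an adjusted p under 0.05.

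Reads on tested events came to between 56714381 and 73685692 per library at 4 days and between 53161273 and 56932913 at 7 days, with a read counted once in each event it touches. Replicate libraries differed by 1.59 to 2.47 times the sampling variance, and no 2 libraries of a group had identical counts in more than 0.523% of events, so each was kept as 1 replicate. The keratin genes KRT8 and KRT18, which mark epithelial cells, had at least 15109 reads on their best-read event in every library, and the adhesion gene CDH1 had at least 164. EPCAM, KRT19, the alveolar genes SFTPC, SFTPB, and NKX2-1, and markers of blood, endothelial, stromal, and liver cells had no event in both tables, which is no measure of their expression.

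PRMT5 is the main enzyme that places symmetric dimethylation on arginine, and GSK591 inhibits it. Among its best known substrates are Sm proteins, which form the core ring of the small nuclear ribonucleoproteins (snRNPs) of the spliceosome, and several RNA-binding proteins that guide exon choice. An exon is included when the splice sites at both of its ends are recognised and joined, so short exons and those with weak sites are often optional.

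The exons and stretches below are a selection from the events described later, all but that of GPR137 called for a difference between the days. They were read from GRCh37, the build of the files, 5′ to 3′ on the strand of the gene. Capitals mark the alternative exon or stretch. Lower case marks the 20 bases before it and the 6 bases after it, or 20 bases on each side for A3SS.

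LIMCH1 exon of 36 bases (+ strand, chr4:41640949-41640984): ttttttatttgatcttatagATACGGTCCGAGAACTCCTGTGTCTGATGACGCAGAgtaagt
CLSTN1 exon of 57 bases (- strand, chr1:9797556-9797612): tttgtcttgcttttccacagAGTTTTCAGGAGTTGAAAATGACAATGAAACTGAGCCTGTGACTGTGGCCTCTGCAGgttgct
MYO18A exon of 45 bases (- strand, chr17:27412622-27412666): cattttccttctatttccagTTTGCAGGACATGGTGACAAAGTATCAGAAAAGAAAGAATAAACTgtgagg
TIA1 exon of 33 bases (- strand, chr2:70456191-70456223): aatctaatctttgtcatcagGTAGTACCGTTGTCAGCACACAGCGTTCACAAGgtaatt
LSM14B exon of 168 bases (+ strand, chr20:60704841-60705008): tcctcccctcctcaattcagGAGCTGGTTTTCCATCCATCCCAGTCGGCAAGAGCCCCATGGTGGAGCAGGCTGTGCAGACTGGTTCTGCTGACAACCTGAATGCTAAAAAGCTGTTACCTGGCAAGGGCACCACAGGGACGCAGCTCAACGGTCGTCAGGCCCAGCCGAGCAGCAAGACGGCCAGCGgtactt
DSCR3 exon of 81 bases (- strand, chr21:38605663-38605743): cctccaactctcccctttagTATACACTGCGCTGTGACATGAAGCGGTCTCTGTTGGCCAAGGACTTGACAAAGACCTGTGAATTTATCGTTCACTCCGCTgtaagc
BCL2L12 exon of 140 bases (+ strand, chr19:50170279-50170418): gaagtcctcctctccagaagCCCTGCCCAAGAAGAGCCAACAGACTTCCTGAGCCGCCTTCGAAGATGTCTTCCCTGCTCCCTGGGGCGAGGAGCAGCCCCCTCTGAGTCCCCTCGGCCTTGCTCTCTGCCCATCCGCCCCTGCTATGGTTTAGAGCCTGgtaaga
RPS24 exon of 22 bases (+ strand, chr10:79799962-79799983): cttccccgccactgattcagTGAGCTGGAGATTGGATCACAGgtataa
GPR137 exon of 150 bases (+ strand, chr11:64055537-64055686): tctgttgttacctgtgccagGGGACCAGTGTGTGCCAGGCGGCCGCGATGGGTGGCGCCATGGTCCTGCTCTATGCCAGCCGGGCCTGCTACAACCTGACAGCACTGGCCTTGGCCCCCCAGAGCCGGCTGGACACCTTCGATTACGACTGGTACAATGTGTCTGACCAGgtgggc
CLIP1 first MXE exon of 33 bases (- strand, chr12:122835658-122835690): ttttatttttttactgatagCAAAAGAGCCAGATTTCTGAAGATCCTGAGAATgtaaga
CLIP1 second MXE exon of 105 bases (- strand, chr12:122831922-122832026): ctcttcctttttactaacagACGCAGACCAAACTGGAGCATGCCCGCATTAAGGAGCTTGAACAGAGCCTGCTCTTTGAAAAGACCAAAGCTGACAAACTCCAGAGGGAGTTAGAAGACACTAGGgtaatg
B4GALNT1 stretch of 33 bases between 2 A3SS (- strand, chr12:58021642-58021674): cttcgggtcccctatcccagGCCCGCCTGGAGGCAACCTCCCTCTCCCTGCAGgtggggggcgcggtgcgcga

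The difference of effects was largest in number among SE and MXE, and their directions were opposite. The GSK591 effect differed between the days in 1174 of 74514 events (1.58%) in 769 genes. It was higher at 7 days in 734 events (0.985%) and lower in 440 (0.590%). Of 746 SE called, 633 were higher at 7 days and 113 lower. Of 285 MXE called, 49 were higher and 236 lower, and the A3SS (22 higher, 38 lower) and A5SS (30 higher, 53 lower) had fewer calls. As a share of those tested, 1.36% of SE, 2.58% of MXE, 1.13% of A3SS, and 2.41% of A5SS were called. Among called events the median absolute difference of ΔΨ was 0.110, and 638 differed by at least 0.1. The direction is that of the log odds, and it differed from that of Ψ in 2 called events. The count depended on the test: limma on the log2 odds of the same counts, which gives every event the same weight whatever its reads, called 0 events, with 7008 at an unadjusted p under 0.05 against 9821 in the quasi-binomial test. Of the 1174 events, 893 (76.1%) had an unadjusted p under 0.05 in limma. Without DMSO 7-day library a 660 events were called, without DMSO 7-day library b 693, and without GSK591 7-day library b 778. Without DMSO 7-day library c, whose mean Ψ over SE (0.81800) was above those of libraries a and b (0.81563 and 0.81545), 1181 were called.

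The GSK591 effect itself was called in 11262 events (15.1%) at 4 days and in 4817 (6.46%) at 7 days, and limma on the log2 odds called 5088 and 2079. At 4 days, 6133 of 8075 called SE were less included with GSK591, whereas at 7 days 1980 of 3392 were. MXE went from 1048 higher and 508 lower at 4 days to 304 higher and 413 lower at 7 days. A5SS had the highest share called on both days, with 944 of 3443 (27.4%) at 4 days and 417 (12.1%) at 7 days, and A3SS had 687 (12.9%) and 291 (5.48%). The median dispersion between replicates was 1.53 at 4 days and 1.14 at 7 days. The test used the same dispersion of an event for both days, estimated over all 12 libraries. The part of this in the counts of each day was not tested. With reads thinned to the total of the shallowest library, 9254 events were called at 4 days and 4916 at 7 days.

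**Figure D1:**
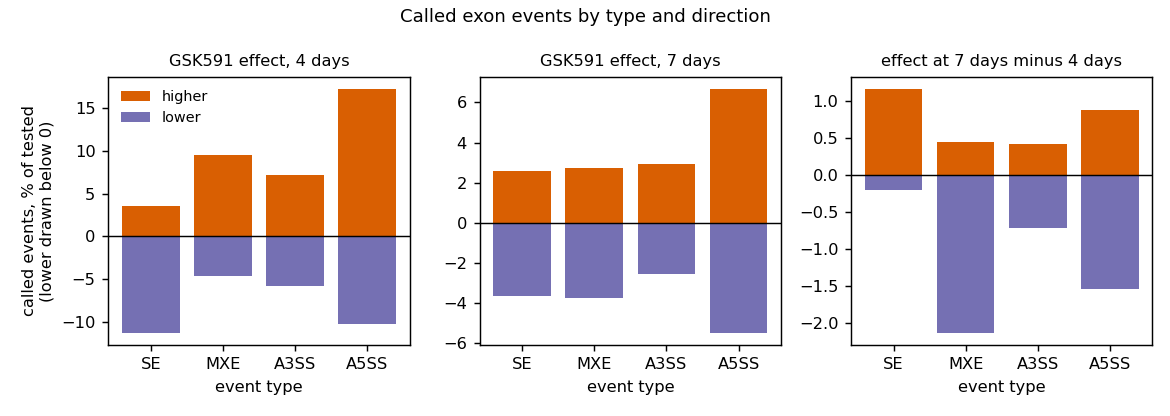
Called events as a percentage of tested events (vertical axis, a separate scale in each panel) by event type, for the GSK591 effect at 4 days, the effect at 7 days, and the effect at 7 days minus that at 4 days. In the panels of a single day, events of higher inclusion in GSK591 are drawn above 0 and of lower inclusion below it. In the last panel, above 0 means a more positive effect at 7 days than at 4 days, whatever the sign of the effect on either day. SE lie mostly below 0 at 4 days (6133 of 8075 lower) and mostly above 0 in the difference (633 of 746 higher), and MXE lie mostly below 0 in the difference (236 of 285 lower).

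The mean Ψ over 54702 SE, taken per library, was 0.82180, 0.82244, and 0.82155 in DMSO at 4 days and 0.80960, 0.81025, and 0.81010 in GSK591 at 4 days. At 7 days it was 0.81563, 0.81545, and 0.81800 in DMSO and 0.81417, 0.81458, and 0.81287 in GSK591. The groups did not overlap on either day, but the gap closed from both sides, with a lower DMSO mean and a higher GSK591 mean at 7 days. The effect was -0.0119 at 4 days and -0.00248 at 7 days, a difference of 0.00946 ± 0.00102 (SE, n = 3 libraries in each of 4 groups). In the two-sided exact permutation of treatment labels within each day, 400 arrangements gave p = 0.10. With the observed or the fully swapped 4-day labels, every 7-day arrangement reaches at least the observed value. The p was therefore set by the 4-day effect and the separation of the groups, and it does not measure the difference.

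**Figure D2:**
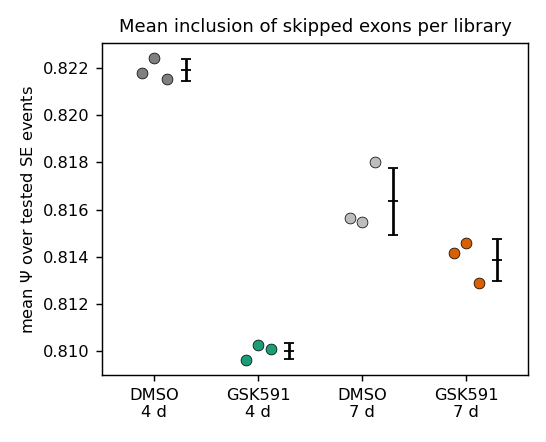
Mean Ψ over 54702 tested SE (vertical axis, which does not start at 0) in each of the 12 libraries by group, 1 point per library, with the group mean ± SD drawn beside the points (n = 3). DMSO and GSK591 differ by -0.0119 (GSK591 minus DMSO) at 4 days and by -0.00248 at 7 days.

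Events called on either day mostly had a ΔΨ of the same sign on the other day, whether or not they were called there. Of 11262 events called at 4 days, ΔΨ had the same sign at 7 days in 9216 (81.8%), with a median ΔΨ in the direction of 4 days of 0.0753 at 4 days and 0.0234 at 7 days. Of 4817 events called at 7 days, 4247 (88.2%) had the same sign at 4 days, with medians of 0.0612 at 4 days and 0.0950 at 7 days. Over the 56628 events with at least 50 reads in each library, called or not, 34704 (61.3%) had the same sign. In each case the day that chose the events has the larger median, which the choice itself favours. Across all tested events the log2 odds effects of the 2 days had a Pearson r of 0.294 and a Spearman coefficient of 0.294, as a description over events that share libraries and, in part, reads.

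The 1174 events fall into classes by the calls on each day. In 592 (50.4%) the effect was called at 4 days alone, with a median absolute ΔΨ of 0.0966 at 4 days and 0.0236 at 7 days. In 268 (22.8%) it was called at 7 days alone, with medians of 0.0196 and 0.0829. It was called on both days in opposite directions in 108 events (9.20%) of 96 genes, and of these 67 were SE, 62 of them lower at 4 days and higher at 7 days. It was called on both days in the same direction in 116 events with the smaller effect at 7 days and in 56 with the larger effect at 7 days. In the remaining 34 it was called on neither day.

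**Figure D3:**
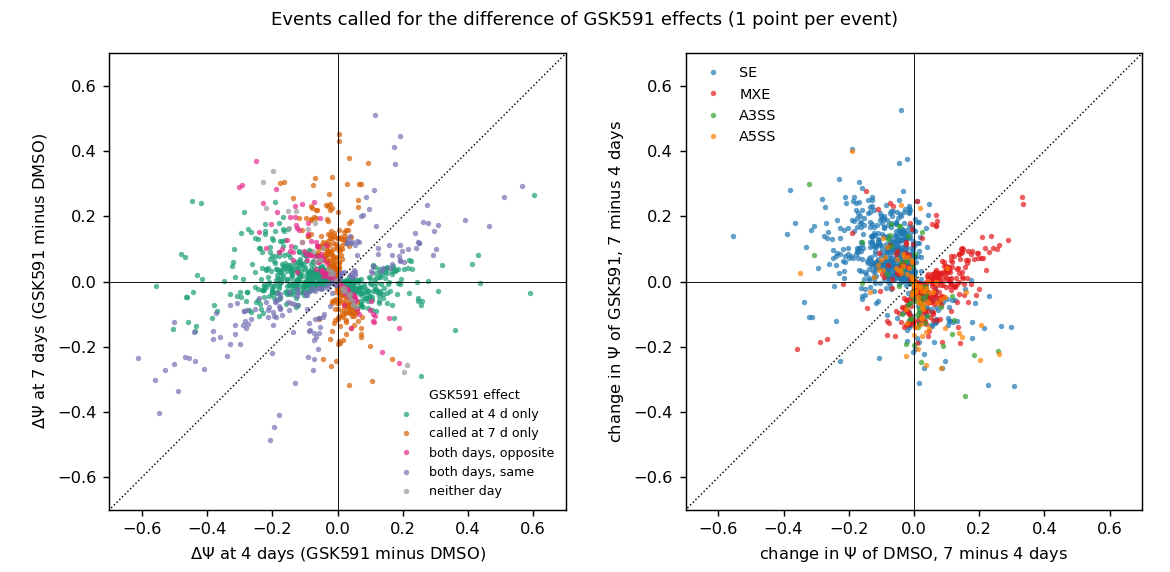
The 1174 events called for the difference of effects, 1 point per event. Left, ΔΨ at 7 days against ΔΨ at 4 days, coloured by the day on which the GSK591 effect was called, with a dotted line of equality. Right, the change in Ψ from 4 to 7 days in GSK591 cells against that in DMSO cells, coloured by event type. Most SE lie at the upper left of the right panel, where DMSO fell and GSK591 rose, and many MXE lie to the right of 0, where DMSO rose.

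Both arms had events called between the days in the quasi-binomial test. Inclusion in DMSO differed between 7 and 4 days in 4541 events (6.09%), and in GSK591 in 4380 (5.88%), or 2786 without GSK591 7-day library a. limma on the log2 odds called 0 events in DMSO, with 8801 at an unadjusted p under 0.05 against 12268 in the quasi-binomial test, and 7 in GSK591. In DMSO, 1382 of 1702 called SE were lower at 7 days, and in GSK591 1171 of 1852 were higher. For the 633 SE higher in the difference the median change in Ψ from 4 to 7 days was 0.0615 in GSK591 and -0.0459 in DMSO, and in 370 of them (58.5%) the change in GSK591 was the larger one. GSK591 alone changed between days by the test in 244 of these, DMSO alone in 219, and both in 105. For the 236 MXE lower in the difference the median change was -0.0123 in GSK591 and 0.0649 in DMSO, and the DMSO change was the larger in most, since that of GSK591 was larger in 86 (36.4%).

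MXE moved with day in both arms. Inclusion of the first exon differed between 7 and 4 days in 2520 of 11058 MXE (22.8%) in DMSO, where 1831 were higher at 7 days, and in 2032 (18.4%) in GSK591, where 1202 were. The median Ψ over 9093 well-read MXE was 0.478, 0.470, and 0.475 in the DMSO libraries at 4 days and 0.501, 0.501, and 0.497 at 7 days. In GSK591 it was 0.482, 0.482, and 0.483 at 4 days and 0.496, 0.491, and 0.489 at 7 days. The counts take in reads within the exons, so this value rises wherever reads over the first exon of a pair gain on reads over the second. Its part in the MXE results was not tested.

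The SE with the largest positive differences of ΔΨ included exons in genes of the cytoskeleton and the nuclear pore. LIMCH1 encodes a protein that binds actin and non-muscle myosin, and its 36-base coding exon was included at 0.765, 0.733, and 0.777 in DMSO and at 0.496, 0.522, and 0.567 in GSK591 at 4 days. At 7 days it stood at 0.411, 0.374, and 0.545 in DMSO and at 0.685, 0.731, and 0.638 in GSK591. The treated libraries were thus all below the controls at 4 days and all above them at 7 days, and DMSO library c was the highest 7-day control, as in CLSTN1 and NUP62. The difference of ΔΨ was 0.472 ± 0.0632 (SE, n = 3 per group), 2.90 ± 0.29 in log2 odds, with an adjusted p = 6.22e-08 from the quasi-binomial F test. The 57-base coding exon of CLSTN1, which encodes the kinesin cargo adaptor calsyntenin, was at 0.690, 0.718, and 0.683 in DMSO and at 0.405, 0.407, and 0.330 in GSK591 at 4 days. At 7 days it was at 0.372, 0.395, and 0.535 in DMSO and at 0.511, 0.511, and 0.580 in GSK591, with overlapping groups and an effect that was not called at that day (adjusted p = 0.159 in the same test). Its difference of ΔΨ was 0.416 ± 0.0623 (adjusted p = 9.81e-07). From 4 to 7 days the DMSO mean fell from 0.758 to 0.443 in LIMCH1 and from 0.697 to 0.434 in CLSTN1. The GSK591 mean rose from 0.528 to 0.685 and from 0.381 to 0.534.

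NUP62 encodes a nucleoporin of the central channel of the nuclear pore. Its 122-base untranslated exon (chr19:50430951-50431072) was at 0.812, 0.796, and 0.814 in DMSO and at 0.370, 0.293, and 0.376 in GSK591 at 4 days, and at 0.609, 0.580, and 0.726 and at 0.625, 0.609, and 0.541 at 7 days. The wide gap of 4 days was replaced by overlapping groups, with a difference of ΔΨ of 0.414 ± 0.0583 (adjusted p = 2.54e-06). SVIL encodes supervillin, which links actin and myosin to the membrane, and its 171-base coding exon (chr10:29820931-29821101) went the other way. Its Ψ was 0.146, 0.138, and 0.164 in DMSO at 4 days, 0.146, 0.292, and 0.350 in GSK591 at 4 days, 0.127, 0.0995, and 0.159 in DMSO at 7 days, and 0.621, 0.679, and 0.618 in GSK591 at 7 days. The DMSO levels stayed low while the treated level grew, with a difference of ΔΨ of 0.397 ± 0.0664 (adjusted p = 0.00604).

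The 2435-base exon of PPP2R3A, a regulatory subunit of protein phosphatase 2A (chr3:135719901-135722335), had the largest difference of ΔΨ of any SE named by the rule, 0.660 ± 0.135 (adjusted p = 0.00351). No skipping read was counted in the 4-day DMSO libraries, and 3 such reads over the group would put Ψ there at 0.931, so its log odds have no stable estimate. It was at 0.562, 0.692, and 0.492 in GSK591 at 4 days, and at 7 days the groups overlapped, with 0.698, 0.444, and 0.722 in DMSO and 1.00, 0.877, and 0.713 in GSK591.

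**Figure D4:**
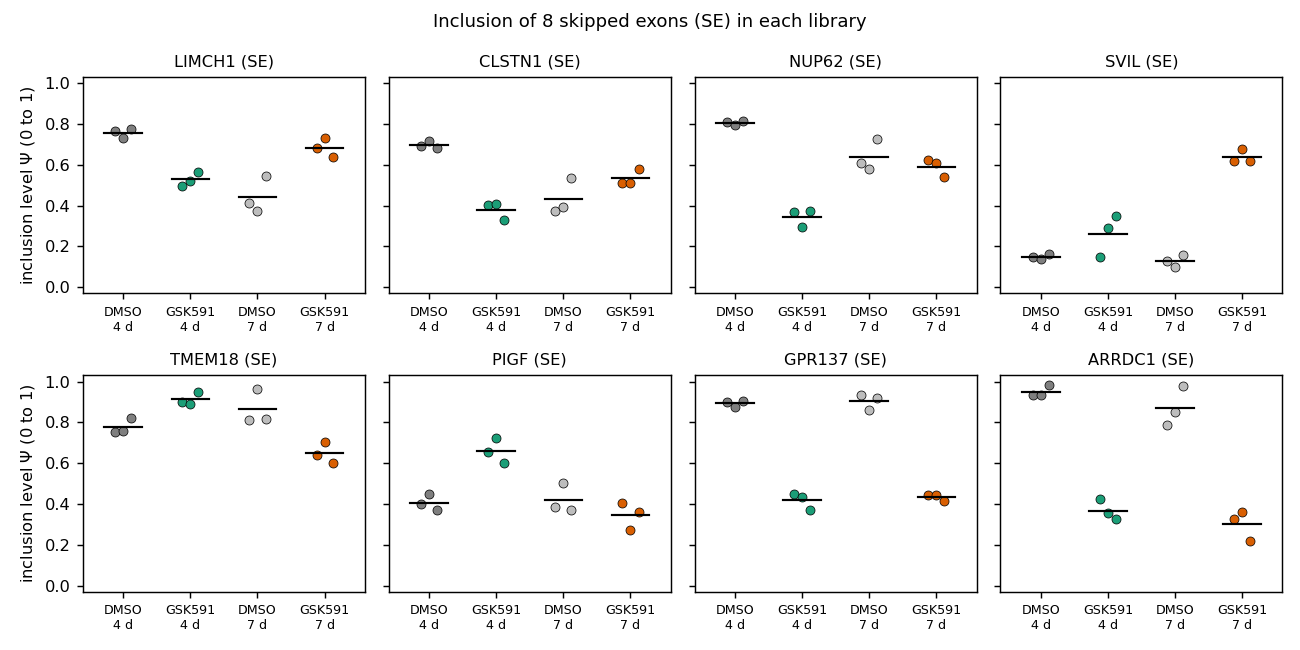
Inclusion level Ψ (vertical axis, 0 to 1) of 8 SE in each library by group, 1 point per library in the order a, b, c, with a bar at the group mean. LIMCH1 changes direction between the days, SVIL gains at 7 days, TMEM18 is above DMSO at 4 days and below it at 7 days, and GPR137 and ARRDC1 are below DMSO on both days.

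Of the 6 SE named for the lowest differences, 4 had been raised by GSK591 at 4 days. The 481-base exon of TMEM18 (chr2:675758-676238, part coding and part untranslated) was at 0.755, 0.758, and 0.821 in DMSO and at 0.900, 0.889, and 0.951 in GSK591 at 4 days, and at 0.813, 0.965, and 0.817 and at 0.642, 0.703, and 0.599 at 7 days. Neither day's groups overlapped, and the order was reversed, with a difference of ΔΨ of -0.352 ± 0.0649 (adjusted p = 0.00368). PIGF acts in the synthesis of the glycosylphosphatidylinositol anchor, and its 123-base exon (chr2:46818942-46819064) rose at 4 days from a mean of 0.406 to 0.660. It had means of 0.420 and 0.348 at 7 days, with a difference of ΔΨ of -0.326 ± 0.0701 (adjusted p = 8.58e-04). FAM45A and ABHD11 also rose at 4 days, and had differences of ΔΨ of -0.358 ± 0.0906 and -0.252 ± 0.0523 (adjusted p = 0.0198 and 0.0122).

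In FKBP10, a collagen chaperone of the endoplasmic reticulum, the 183-base coding exon (chr17:39976093-39976275) had a mean Ψ of 0.640 in DMSO and 0.673 in GSK591 at 4 days, and of 0.817 and 0.501 at 7 days. FAM193B was lower with GSK591 on both days, with ΔΨ of -0.194 and -0.446. Its mean was 0.416 in DMSO and 0.222 in GSK591 at 4 days, and 0.603 and 0.157 at 7 days. From 4 to 7 days the change was called in DMSO (adjusted p = 0.0253, quasi-binomial F test) and not in GSK591 (0.359). The differences of ΔΨ of FKBP10 and FAM193B were -0.350 ± 0.0825 and -0.253 ± 0.0471 (adjusted p = 0.0247 and 0.0452). Of these 6, TMEM18 and PIGF kept their calls without any 1 library and the other 4 did not. The call of ABHD11 was lost without GSK591 4-day library c, DMSO 7-day library b, or GSK591 7-day library c (adjusted p up to 0.0862). That of FAM45A was lost without DMSO 4-day b, GSK591 4-day b or c, DMSO 7-day b, or GSK591 7-day c (up to 0.0852). That of FKBP10 was lost without DMSO 4-day a or c, GSK591 4-day c, DMSO 7-day a or b, or GSK591 7-day c (up to 0.118), and that of FAM193B without any 1 of the 12 libraries (up to 0.156).

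In 4 further SE the GSK591 effect was called on both days with opposite signs, and in each the exon was lower at 4 days and higher at 7 days. LSM14B encodes an LSm protein of cytoplasmic messenger ribonucleoproteins, and its 168-base coding exon was at 0.818, 0.802, and 0.777 in DMSO and at 0.561, 0.615, and 0.502 in GSK591 at 4 days. It stood at 0.567, 0.663, and 0.746 in DMSO and at 0.754, 0.884, and 0.790 in GSK591 at 7 days, where the groups were separated by 0.746 and 0.754. Its difference of ΔΨ was 0.391 ± 0.0734 (adjusted p = 8.78e-05). DSCR3 takes part in the recycling of membrane cargo from endosomes, and its 81-base coding exon was at 0.768, 0.804, and 0.850 in DMSO and at 0.747, 0.672, and 0.677 in GSK591 at 4 days. At 7 days it was at 0.651, 0.604, and 0.681 in DMSO and at 0.904, 0.865, and 0.880 in GSK591, with no overlap on either day and a difference of ΔΨ of 0.346 ± 0.0421 (adjusted p = 2.97e-05). ARHGEF40, a guanine nucleotide exchange factor, and ZFAND1, a zinc finger protein, had differences of ΔΨ of 0.380 ± 0.0953 and 0.363 ± 0.0526 (adjusted p = 0.00672 and 3.88e-05).

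The rule also named 4 SE that fell on both days and whose difference was not called. The 150-base coding exon of GPR137, an orphan receptor gene, was at 0.898, 0.877, and 0.905 in DMSO and at 0.448, 0.433, and 0.372 in GSK591 at 4 days, and at 0.935, 0.861, and 0.921 and at 0.443, 0.442, and 0.416 at 7 days. The groups lay far apart on both days, and the difference of ΔΨ was 0.00320 ± 0.0350, with a 95% interval of -0.99 to 0.84 in log2 odds. ΔΨ was -0.581 and -0.568 at 4 and 7 days in ARRDC1 (88 bases, interval of the difference -0.49 to 2.71 in log2 odds) and -0.555 and -0.522 in DPY19L3 (1340 bases, interval -1.79 to 1.72). In the TMEM256-PLSCR3 readthrough transcript (221 bases) it was -0.558 and -0.469, and the interval of 0.14 to 1.48 excluded 0 although the adjusted p was 0.266 in the quasi-binomial test. These intervals allow differences of a size called elsewhere.

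MXE named by the rule included events of CLIP1, EPS15L1, LSM14B, and SUN1. CLIP1 encodes the microtubule plus-end protein CLIP-170, and its 33-base first exon, set against the 105-base second one, was at 0.236, 0.244, and 0.261 in DMSO and at 0.264, 0.193, and 0.299 in GSK591 at 4 days. At 7 days it was at 0.0931, 0.0802, and 0.130 in DMSO and at 0.596, 0.396, and 0.601 in GSK591, so that overlapping groups came apart. The difference of ΔΨ was 0.425 ± 0.0762 (adjusted p = 0.00131). SUN1 is a protein of the inner nuclear membrane, and its 84-base coding exon (chr7:889157-889240) rose with GSK591 at both days, from 0.197 ± 0.0262 to 0.763 ± 0.0136 (SD, n = 3) at 4 days and from 0.332 ± 0.0652 to 0.625 ± 0.0221 at 7 days. Its difference of ΔΨ was -0.273 ± 0.0432 (adjusted p = 0.00310). The LSM14B event sets the upstream 214-base exon against the 168-base exon described above and shares its reads, and its difference of ΔΨ was -0.330 ± 0.0489 (adjusted p = 3.06e-05). In EPS15L1, an endocytic adaptor, the difference of ΔΨ was 0.338 ± 0.0744 (adjusted p = 0.0162), and the call was lost without DMSO 7-day library b or c or GSK591 7-day library a or c (adjusted p up to 0.0813).

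Among alternative 3′ splice sites, the longer form of SIRT7, a nuclear deacetylase, adds 172 bases (chr17:79872407-79872578). It was at 0.775, 0.791, and 0.844 in DMSO and at 0.630, 0.550, and 0.627 in GSK591 at 4 days, and at 0.559, 0.645, and 0.725 and at 0.756, 0.727, and 0.683 at 7 days. Its drop of 4 days was followed by overlapping groups, and the difference of ΔΨ was 0.280 ± 0.0623 (adjusted p = 0.00109). The 21-base stretch of B4GALT3, a galactosyltransferase (chr1:161145865-161145885), rose from 0.381 ± 0.0275 to 0.658 ± 0.0540 at 4 days and had means of 0.497 and 0.498 at 7 days, a difference of -0.276 ± 0.0553 (adjusted p = 0.00615). The 33-base stretch of B4GALNT1, which makes the gangliosides GM2 and GD2, rose at 4 days, with a difference of ΔΨ of -0.286 ± 0.0874 (adjusted p = 0.0131). That call was lost without GSK591 4-day library a, DMSO 7-day library a or b, or GSK591 7-day library a (adjusted p up to 0.123). In C1orf63 an A3SS and an A5SS event cover overlapping sequence of one region (chr1:25570125-25570715 and chr1:25570668-25571640), and their differences of ΔΨ were 0.390 ± 0.0642 and 0.375 ± 0.0532 (adjusted p = 5.77e-04 and 9.73e-04). From 4 to 7 days the mean of the A3SS event went from 0.824 to 0.517 in DMSO and from 0.569 to 0.652 in GSK591. That of the A5SS event went from 0.789 to 0.441 in DMSO and from 0.544 to 0.571 in GSK591.

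Among alternative 5′ splice sites, MVD and FXYD5 had the smallest standard errors of those named. MVD encodes the mevalonate diphosphate decarboxylase of sterol synthesis, and its longer form adds 180 bases (chr16:88724143-88724322). It was at 0.0356, 0.0604, and 0.0442 in DMSO and at 0.502, 0.491, and 0.539 in GSK591 at 4 days, and at 0.0848, 0.0884, and 0.0778 and at 0.239, 0.262, and 0.259 at 7 days. The rise held on both days and was smaller at 7 days, with a difference of ΔΨ of -0.294 ± 0.0182 (adjusted p = 9.81e-07). The longer form of FXYD5, a regulator of the sodium pump, adds 154 bases (chr19:35657075-35657228). It was at 0.796, 0.772, and 0.750 in DMSO and at 0.406, 0.375, and 0.415 in GSK591 at 4 days, and at 0.720, 0.722, and 0.753 and at 0.645, 0.647, and 0.611 at 7 days. It fell on both days and less at 7 days, with a difference of ΔΨ of 0.277 ± 0.0239 (adjusted p = 5.11e-07). ATXN2L, an ataxin-2-like RNA-binding protein gene, had means of 0.740 and 0.839 at 4 days and of 0.879 and 0.680 at 7 days (difference -0.298 ± 0.0730, adjusted p = 0.0174), and its call was lost without GSK591 4-day library a, DMSO 7-day library a, or GSK591 7-day library a or c (adjusted p up to 0.0980).

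**Figure D5:**
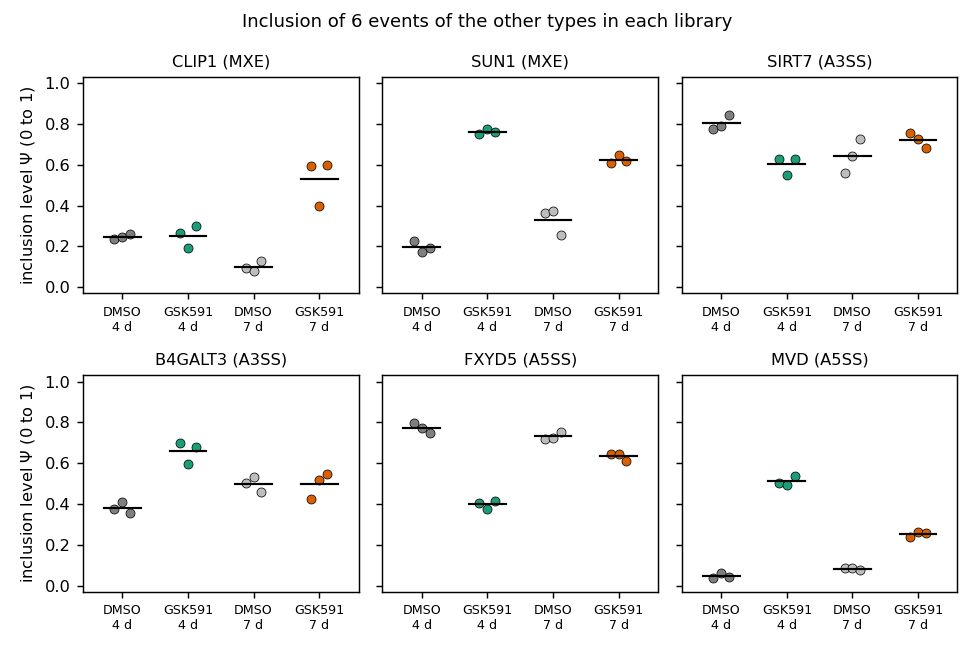
Inclusion level Ψ (vertical axis, 0 to 1) of 6 MXE, A3SS, and A5SS events in each library by group, 1 point per library in the order a, b, c, with a bar at the group mean. CLIP1 rises at 7 days alone, SUN1 and MVD rise on both days by less at 7 days, and FXYD5 falls on both days by less at 7 days.

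Genes that encode splicing factors were looked at as lists. Of 335 events in 27 genes of hnRNP proteins, which coat nascent RNA and steer exon choice, 14 were called (4.18%, 7 in each direction), against 1.58% of all tested events. For SR proteins and SR-like regulators 4 of 179 were called (2.23%), for other exon choice regulators 12 of 426 (2.82%, 8 higher), and for core spliceosome and Sm proteins 8 of 372 (2.15%, 7 higher). The median log2 odds difference was 0.07, 0.16, 0.14, and 0.10 in these lists, against 0.13 over all tested events. The median lowest-library read number was 1001 for hnRNP events and 322, 200, and 372 for the SR, other regulator, and core lists, against 133 over all events, and the part of read depth in these shares was not tested. For the plain effect at 4 days the shares called were 25.7%, 15.6%, 20.0%, and 13.4% in these lists, against 15.1% of all tested events. At 7 days they were 13.7%, 15.6%, 10.6%, and 6.99%, against 6.46%.

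SNRNP70 encodes the U1-70K protein of the U1 snRNP, which recognises 5′ splice sites, and its 1474-base, mostly untranslated exon (chr19:49605371-49606844) rose on both days. Its Ψ was 0.0447, 0.0461, and 0.0419 in DMSO and 0.131, 0.138, and 0.120 in GSK591 at 4 days, and 0.0394, 0.0533, and 0.0643 and 0.343, 0.309, and 0.286 at 7 days. The 3 highest of the 12 values were those of GSK591 at 7 days, with a difference of ΔΨ of 0.175 ± 0.0188 (adjusted p = 6.21e-08). SRRM2 encodes a scaffold of nuclear speckles, and its 95-base exon (chr16:2818506-2818600) rose at 4 days and fell at 7 days. It was at 0.129, 0.120, and 0.114 in DMSO and at 0.159, 0.172, and 0.152 in GSK591 at 4 days, and at 0.270, 0.242, and 0.232 and at 0.0919, 0.112, and 0.110 at 7 days, with a difference of ΔΨ of -0.183 ± 0.0149 (adjusted p = 6.41e-08).

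TIA1 encodes a protein that helps U1 snRNP bind weak 5′ splice sites, and its 33-base coding exon fell at 4 days from 0.800 ± 0.0258 to 0.649 ± 0.0432 and stood at 0.692 ± 0.0370 and 0.776 ± 0.0103 at 7 days (difference of ΔΨ 0.235 ± 0.0366, adjusted p = 0.00522). The 67-base exon of U2AF1 (chr21:44520563-44520629), the factor that contacts the AG of 3′ splice sites, fell on both days, with ΔΨ of -0.314 and -0.160 (adjusted p of the difference = 6.79e-04). HNRNPA2B1 fell at 4 days (ΔΨ = -0.177) and had a ΔΨ of -0.0460 at 7 days in its 136-base untranslated exon (adjusted p = 7.78e-04). An MXE of HNRNPC had ΔΨ of 0.0987 and -0.00360 (adjusted p = 4.99e-05), and a 1358-base exon of ACIN1, a partner of the exon junction complex, had ΔΨ of 0.00816 and 0.101 (adjusted p = 3.59e-04). PRPF40B, a U1-associated factor, had as few as 17 reads in a library and a difference of ΔΨ of 0.565 ± 0.154 (adjusted p = 0.0161). Its call was lost without GSK591 4-day library b or c, DMSO 7-day library a, or GSK591 7-day library b or c (adjusted p up to 0.0974).

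For genes of arginine methylation, RNA export, and decay the counts were small, and their shares stand beside 1.58% of all tested events. Of 100 events in arginine methyltransferases and PRMT5 cofactors 2 were called (2.0%). PRMT2, a Type I enzyme, had a 109-base untranslated exon (chr21:48056351-48056459) at means of 0.269 and 0.181 at 4 days and of 0.245 and 0.329 at 7 days, so that it fell at 4 days and rose at 7 days (difference of ΔΨ 0.172 ± 0.0353, adjusted p = 7.08e-04). CLNS1A encodes pICln, which brings Sm proteins to PRMT5, and its MXE had ΔΨ of 0.0939 and -0.0279 (adjusted p = 0.0167). That call was lost without DMSO 4-day b, GSK591 4-day b, any 1 of the DMSO 7-day libraries, or GSK591 7-day a or c (adjusted p up to 0.0931). Splicing kinases had 1 called event of 88 (1.14%), an A3SS stretch of 120 bases in DYRK1B (chr19:40317508-40317627) with ΔΨ of 0.166 and -0.0733 (adjusted p = 0.00946, and 0.0555 without DMSO 7-day library a).

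Of 232 events in mRNA export factors 6 were called (2.59%, against 1.58% of all tested events), among them 2 that share the 116-base exon of THOC5, a subunit of the THO complex. The first had means of 0.730 in DMSO and 0.583 in GSK591 at 4 days, and of 0.481 and 0.680 at 7 days. The second had 0.469 and 0.407, then 0.309 and 0.529. The differences of ΔΨ of the 2 THOC5 events were 0.345 ± 0.0740 and 0.282 ± 0.0740 (adjusted p = 0.0145 and 0.0384). The first was lost without DMSO 7-day library a or b or GSK591 7-day library c (adjusted p up to 0.0960), and the second without 10 of the 12 libraries in turn, DMSO 4-day b and DMSO 7-day a being the exceptions (up to 0.144). In nonsense-mediated decay and exon junction genes 1 event of 203 was called (0.493%), in MAGOH of the exon junction core (ΔΨ of -0.0821 and 0.0134, adjusted p = 0.0282). It was lost without DMSO 4-day a or b, GSK591 4-day b or c, DMSO 7-day a or b, or GSK591 7-day a or b (up to 0.106).

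Genes known to switch isoforms between epithelial and mesenchymal cells had 33 called events of 705 (4.68%, against 1.58% of all tested events) in 18 genes, 22 higher and 11 lower at 7 days. Their median lowest-library read number was 242 against 133 over all events, and their shares were also above those of all events for the effect at 4 days (23.1% against 15.1%) and at 7 days (13.9% against 6.46%). Besides CLSTN1 the rule named MYO18A, an unconventional myosin. Its 45-base coding exon was at 0.548, 0.599, and 0.533 in DMSO and at 0.485, 0.436, and 0.530 in GSK591 at 4 days, and at 0.372, 0.395, and 0.388 and at 0.717, 0.615, and 0.708 at 7 days. The groups lay close at 4 days and far apart at 7 days, where the exon rose, with a difference of ΔΨ of 0.371 ± 0.0475 (adjusted p = 1.95e-06). Others of this list with called events included CD44, CTNND1, ENAH, ITGA6, and TPM2, which are named here after their calls were seen.

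Apoptosis genes had 16 called events of 422 (3.79%, 13 higher), among them events in BAX, BCL2L12, BNIP2, and TNFRSF10B. These 16 lie in 5 of 47 tested genes. The p53 pathway, which shares BAX and TNFRSF10B with that list, had 8 of 257 (3.11%, 7 higher), in 3 of 33 tested genes. Over all tested events 1.58% were called, of which 62.5% were higher. For the plain effect the shares called in these lists were 19.4% and 13.6% at 4 days, against 15.1% of all tested events. At 7 days they were 6.16% and 4.67%, against 6.46%. The median lowest-library read number was 190 and 99 in these lists and 133 over all events. The 140-base coding exon of BCL2L12, a member of the BCL2 family, was at 0.619, 0.659, and 0.639 in DMSO and at 0.399, 0.428, and 0.430 in GSK591 at 4 days, and at 0.357, 0.405, and 0.444 and at 0.490, 0.569, and 0.457 at 7 days. It fell at 4 days and rose at 7 days (difference of ΔΨ 0.323 ± 0.0444, adjusted p = 5.33e-06). The MXE of TNFRSF10B, a receptor for the ligand TRAIL, had ΔΨ of -0.0765 and 0.0605 (adjusted p = 0.0133), and its call was lost without GSK591 4-day library b or GSK591 7-day library a (up to 0.0632). The 52-base exon of BAX fell at 4 days (ΔΨ = -0.0752) and had a ΔΨ of 0.00260 at 7 days (adjusted p = 0.0454). That call was kept without DMSO 4-day b, GSK591 4-day a, or GSK591 7-day c, and lost without any 1 of the other 9 libraries (up to 0.165).

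In DNA repair, chromatin, and division lists the shares called were under the 1.58% of all tested events, without a test of that difference, and the median lowest-library read numbers were 67, 89, and 107 against 133. In DNA repair genes 4 of 905 events were called (0.442%), 2 of them with overlapping forms of an exon of RAD52, a recombination protein. The first RAD52 event had means of 0.795 in DMSO and 0.237 in GSK591 at 4 days, and of 0.431 and 0.418 at 7 days. The second had 0.884 and 0.420, then 0.607 and 0.561. RAD52 had 27 and 38 reads in its shallowest library and differences of ΔΨ of 0.545 ± 0.145 and 0.418 ± 0.130 (adjusted p = 0.0326 and 0.0377). Both calls were lost without DMSO 4-day b or c, GSK591 4-day b, DMSO 7-day a or b, or GSK591 7-day a or c, and the second also without GSK591 4-day a (up to 0.155 and 0.174). In histone lysine methyltransferases and demethylases 1 of 431 was called (0.232%), the 144-base exon of EHMT1, which methylates lysine 9 of histone H3 (ΔΨ of -0.182 and 0.0104, adjusted p = 0.0172). It was lost without DMSO 7-day a or c or GSK591 7-day a or c (up to 0.130).

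Mitosis genes had 10 called events of 1068 (0.936%, 8 higher). The 4755-base coding exon of ASPM, a spindle pole protein (chr1:197069561-197074315), was at 0.662, 0.660, and 0.725 in DMSO and at 0.278, 0.306, and 0.330 in GSK591 at 4 days, and at 0.418, 0.476, and 0.543 and at 0.497, 0.403, and 0.323 at 7 days. The drop of 4 days was followed by overlapping groups, with a difference of ΔΨ of 0.306 ± 0.0673 (adjusted p = 6.12e-04). In CEP95, a centrosomal protein gene, 2 alternative 5′ splice sites lie 4 bases apart, and the difference of ΔΨ was -0.318 ± 0.0802 (adjusted p = 0.0306). It was lost without DMSO 4-day c, GSK591 4-day b or c, DMSO 7-day a, or GSK591 7-day a or c (up to 0.167).

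Cytosolic ribosomal protein genes had the highest share, with 57 of 567 events called (10.1%, 24 higher and 33 lower) in 26 genes. Their median lowest-library read number was 11143 and their median absolute difference of ΔΨ was 6.39e-04 over all 567 tested events, called or not, against 0.0144 over all 74514. Over all tested events 1.58% were called for the difference. For the plain effect the shares called in this list were 30.7% at 4 days and 13.6% at 7 days, against 15.1% and 6.46%. Ribosomal protein genes have many near-identical pseudogenes, and how the counting treated reads shared with them is not given in the sources used here, so these values are uncertain. The 22-base exon of RPS24 was at 0.172, 0.184, and 0.199 in DMSO and at 0.0543, 0.0609, and 0.0610 in GSK591 at 4 days, and at 0.170, 0.150, and 0.166 and at 0.229, 0.170, and 0.179 at 7 days. The drop of 4 days was gone at 7 days, where the effect was called upward, with a difference of ΔΨ of 0.157 ± 0.0210, 2.15 ± 0.15 in log2 odds (adjusted p = 3.42e-12). RPL17 fell on both days (ΔΨ of -0.242 and -0.0519, adjusted p of the difference = 0.0154), and its call was lost without DMSO 4-day c, DMSO 7-day a, or GSK591 7-day a (up to 0.204).

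The exons themselves differed in length and splice-site letters. The counts take in reads within the exon, so its length can bear on whether it is called, and that part was not tested. Tested SE were mostly near full inclusion, with a median Ψ of 0.982 to 0.989 in the groups. Over 42991 distinct tested SE the median exon length was 118 bases, 10.4% were of 60 bases or fewer, and 41.4% had a length that is a multiple of 3. Over the 526 distinct SE higher in the difference these values were 99.0 bases, 20.0%, and 48.7%, and over the 92 lower ones 142 bases, 10.9%, and 48.9%. The exon was annotated as wholly coding in 74.7%, 68.3%, and 44.6% of the 3 sets. G stood at the third base of the downstream intron in 33.3% of all tested SE, 29.8% of the higher set, and 14.1% of the lower set. The sets of SE called for the plain effect are given as lower and higher at 4 days, then lower and higher at 7 days. Their median lengths were 108, 129, 111, and 114 bases, with 14.1%, 10.4%, 13.3%, and 14.4% of 60 bases or fewer. Multiples of 3 made up 42.1%, 45.6%, 45.0%, and 46.7%, and wholly coding exons 74.8%, 50.4%, 74.4%, and 50.9%. G stood at the third base in 40.8%, 31.8%, 43.9%, and 29.5%. The upstream intron had a median of 1583 bases in the higher set and 1218 in the lower set against 2038 over all tested SE, and it was also shorter in SE called for the plain effect, with 1115 for those lower at 4 days, 1584 for those higher at 4 days, 614 for those lower at 7 days, and 1880 for those higher at 7 days. These are descriptions without a test.

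At 2 days of GSK591, listed with the 4-day DMSO libraries as control, values of 7 named events are given first. They were chosen after their values were seen, as were the 2 that follow, and no test was made. Mean Ψ at 2 days was 0.525 ± 0.0228 (SD, n = 3) in LIMCH1, against 0.528 at 4 days and 0.685 at 7 days. It was 0.392 ± 0.0588 in NUP62 (0.346 and 0.592), 0.408 ± 0.0150 in FXYD5 (0.398 and 0.634), 0.0752 ± 0.00503 in RPS24 (0.0588 and 0.192), and 0.660 ± 0.0502 in B4GALT3 (0.658 and 0.498). MVD was at 0.349 ± 0.0214, between its 7-day level of 0.253 and its 4-day level of 0.511, and SNRNP70 was at 0.0533 ± 0.00858, against 0.0442 in DMSO at 4 days. Beyond these 7, named events were not all near their 4-day level. TMEM18 was at 0.789 ± 0.0165, against 0.913 with GSK591 and 0.778 with DMSO at 4 days. The MXE of CLNS1A was at 0.398 ± 0.0310, against 0.514 and 0.420.

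MS023, which inhibits the Type I enzymes that place asymmetric dimethylation, was given at 1 µM for the same days. The change from 4 to 7 days under GSK591 was tested against that under MS023, a comparison in which the shared DMSO libraries cancel. It differed in 317 of 62008 events tested in 18 libraries (0.511%), of which 213 were SE, 165 of them with the more positive change under GSK591. Of 54 named events that could be tested, 16 were called. Most named events were chosen by a difference that used the same GSK591 libraries. That choice favours calls here, so the share and the named values are not independent support. NUP62 was at 0.743 ± 0.0143 and 0.612 ± 0.0699 with MS023 at 4 and 7 days (adjusted p = 3.86e-05), while with GSK591 it went from 0.346 to 0.592. FXYD5 was at 0.874 ± 0.0223 and 0.832 ± 0.00359 (adjusted p = 8.81e-08), RPS24 at 0.326 ± 0.00735 and 0.299 ± 0.00786 (adjusted p = 5.52e-15), and SNRNP70 at 0.110 ± 0.00576 and 0.148 ± 0.00708 (adjusted p = 1.52e-07). LIMCH1 (adjusted p = 0.0594) and CLIP1 (adjusted p = 0.566) did not pass. limma on the log2 odds called 1 event in this comparison, with 4799 at an unadjusted p under 0.05 against 6013 in the quasi-binomial test.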

How the data were processed

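Stranded poly(A) libraries of A549 cells were sequenced as 150 nt paired reads. The authors trimmed the reads with Trim Galore 0.6.5, aligned them to hg19 with STAR 2.4.2a, and ran rMATS for each inhibitor against DMSO. The deposited values are whole-number counts of inclusion and skipping reads, not normalized, 3 libraries to a cell, with effective lengths. Reads within the alternative segment are included. The deposited tables also hold Ψ, p-values, and FDR of the authors' own comparisons, which were not used. From the 8 deposited files, 5 were used, and 0 columns of other samples were left over.

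Ψ was each count over its effective length, inclusion divided by the sum. The dispersion of the quasi-binomial model was the Pearson statistic over 8 residual degrees of freedom, moderated with squeezeVar of limma 3.58.1 in R 4.3.3 (25.0 prior degrees of freedom) never below 1, and the difference was tested by F. Scripts ran in Python 3.11.15 and were also run on simulated counts. The simulated dispersion varied less between events than the observed one and was shuffled among events. That run therefore does not give the rate of false calls in these data. Exons were set against GENCODE annotation lifted to GRCh37.

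Named events were the 6 SE highest and the 6 lowest in the difference of ΔΨ, and 2 and 2 of each other type, among called events with at least 50 reads in every library. To these were added 4 with opposite calls on both days, 4 SE called on both days but not in the difference, and at most 2 called events per gene list, 1 event per gene and type outside the lists. Results that need withheld items are not reported here. Members, 15 gene lists, and tests were chosen with earlier results of these data known. Depth differs between days, and error bars cover the spread between libraries. The planned unit was counts, and the comma-joined cells were entered under another unit. Alternatives were another read minimum, adjustment within types, limma on log2 odds with 0.5 added, an unheld dispersion, thinned reads (seed 20240501), 1 event per exon, no length correction, and each library left out.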

Additional observations from a re-analysis of the deposited data

Results flagged for a closer look

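The GSK591 effect differed between 7 and 4 days, by the quasi-binomial test of the difference itself, in 1174 events (746 SE, 285 MXE, 60 A3SS, and 83 A5SS). The change from 4 to 7 days differed between GSK591 and MS023 in 317 events. Groups of 3 libraries were not tested for single libraries that stand apart.

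Among named events, the difference of ΔΨ that passed this test was positive in the following. It was 0.660 in PPP2R3A (SE), 0.472 in LIMCH1 (SE), 0.416 in CLSTN1 (SE), 0.414 in NUP62 (SE), 0.397 in SVIL (SE), 0.425 in CLIP1 (MXE), 0.338 in EPS15L1 (MXE), 0.390 in C1orf63 (A3SS), 0.280 in SIRT7 (A3SS), 0.375 in C1orf63 (A5SS), 0.277 in FXYD5 (A5SS), and 0.391 in LSM14B (SE). Further values were 0.380 in ARHGEF40 (SE), 0.363 in ZFAND1 (SE), 0.346 in DSCR3 (SE), 0.0928 in ACIN1 (SE), 0.131 in HNRNPA2B1 (SE), 0.235 in TIA1 (SE), 0.154 in U2AF1 (SE), 0.565 in PRPF40B (SE), 0.175 in SNRNP70 (SE), 0.172 in PRMT2 (SE), 0.345 in THOC5 (SE), 0.282 in THOC5 (SE), and 0.137 in TNFRSF10B (MXE). Further values were 0.0778 in BAX (SE), 0.545 in RAD52 (SE), 0.418 in RAD52 (SE), 0.0955 in MAGOH (SE), 0.192 in EHMT1 (SE), 0.306 in ASPM (SE), 0.371 in MYO18A (SE), 0.323 in BCL2L12 (SE), 0.190 in RPL17 (SE), and 0.157 in RPS24 (SE).

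It was negative in the following. The values were -0.358 in FAM45A (SE), -0.352 in TMEM18 (SE), -0.350 in FKBP10 (SE), -0.326 in PIGF (SE), -0.253 in FAM193B (SE), -0.252 in ABHD11 (SE), -0.330 in LSM14B (MXE), -0.273 in SUN1 (MXE), -0.286 in B4GALNT1 (A3SS), -0.276 in B4GALT3 (A3SS), -0.298 in ATXN2L (A5SS), -0.294 in MVD (A5SS), -0.183 in SRRM2 (SE), -0.102 in HNRNPC (MXE), -0.239 in DYRK1B (A3SS), -0.122 in CLNS1A (MXE), and -0.318 in CEP95 (A5SS).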

How the results depend on the processing

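No paired analysis was possible because the deposited columns carry no replicate numbers. Limma on the log2 odds gave the lowest counts: 0 events for the difference of effects, 5088 for the effect at 4 days, 2079 at 7 days, 0 for DMSO at 7 against 4 days (8801 at an unadjusted p under 0.05, against 12268 in the quasi-binomial test), 7 for GSK591 at 7 against 4 days, and 1 against MS023. It gives all events of any depth the same weight; the cause of the lower counts was not tested. Leaving out 1 library in turn gave 660 to 1183 events for the difference, 9144 to 11028 at 4 days, 3339 to 5140 at 7 days, 3043 to 4605 for DMSO and 2786 to 4671 for GSK591 between days, and 223 to 334 against MS023. The difference in mean Ψ then ran from 0.00901 to 0.0103, and it was 0.00622 with the median over events, 0.00749 without length correction, and 0.00876 at 20 reads or more, against 0.00946. All other alternatives kept the counts of events within 1.5 times, and for the difference they ran from 954 with thinned reads to 1222 with adjustment within types. A quasi-likelihood test on both counts with a term for each library was not run, because the comma-joined cells had been entered under a unit other than counts. Of 53 named events called, 33 kept the call without each library and 20 lost it without at least 1, and all 53 lost it in limma. No named event changed sign in any alternative. The read minimum, the adjustment within types, limma, and the unheld dispersion left the difference of ΔΨ of an event as it was, so they could not show a change of its sign. The unheld dispersion also left the counts as they were, with 1174 for the difference. Pseudogene reads were not separated.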
